A study of Cricetulus griseus and Cricetulus griseus
Mus musculus and Mus musculus with 202 samples.

Results

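The genes described here make bile acids, attach them to taurine or glycine, control that synthesis, and carry bile acids and other organic anions into and out of cells. They were chosen by name, with earlier results of these data known, so shares set beside those of all genes are descriptive. A list of 38 genes in 7 roles was matched to the array's probe table. Each gene with a probe assigned to that symbol alone was kept. In all 35 of the 38 genes were found, out of 16504 genes measured, and 37 probes covered them because Atp8b1 had 3. Slco1b2, Slc51a and Slc51b were not analysed here.

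Bile acids are made from cholesterol in hepatocytes by hydroxylation and reduction of the ring and by shortening of the side chain in peroxisomes. They are then joined to an amino acid, pumped across the canalicular membrane into bile, taken up again in the ileum and returned to the liver through the portal blood. Nuclear receptors and an intestinal growth factor signal feed the size of this pool back on synthesis. Most of these genes are known as genes of the liver or the ileum, while a few of them, such as Cyp46a1 and Abcb1a, are known for their roles in brain.

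Mouse whole liver RNA was hybridised against hamster whole liver RNA, and mouse whole brain RNA against Chinese hamster whole brain RNA, with 2 arrays per tissue. The other arrays set 99 mouse-hamster radiation hybrid lines of the T31 panel against A23, the hamster fibroblast-derived line that received the irradiated mouse chromosome fragments. Each line is a clone that holds its own random set of mouse fragments on a full hamster genome, and each was measured on 2 arrays. All cultures, hybrid and A23, were grown in DMEM with serum. The second array of each pair exchanged the dyes of the first, so replicate 1 and replicate 2 also stand for the opposite dye orientations. The labels call the arrays biological replicas but name no animal, strain, sex, age or separate culture, so a p-value here reflects the spread of the hybridised samples alone, and that spread may be technical. Values are log2 ratios of mouse over hamster for the tissues and of hybrid over A23 for the lines.

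Every value compares 2 species, or a hybrid with a hamster cell, on the same probe. A difference in RNA level and a difference in how well the probe matches mouse and hamster sequence cannot be told apart in these ratios, nor can fewer cells of a type be told apart from less RNA per cell. Signal intensities were not used here, so whether a gene was above background in a tissue is unknown, and the tissue labels could not be checked against marker levels. The marker lists give species ratios only. For scale, limma called 2.35% of all genes higher in mouse liver and 2.26% lower, and 10.1% and 5.91% in brain. With dye orientation as a replicate block the liver shares were 16.3% and 9.22%. In liver, 3 of 13 measured hepatocyte markers were called higher in mouse and 0 lower. The hepatic stellate cell list had 1 of 6 called higher, and the lists for cholangiocytes, Kupffer cells and macrophages, liver sinusoidal endothelium, brain endothelium and neurons, each with 6 measured genes, had 0 called there by limma. With dye orientation entered as a replicate block, the liver lists gave 4 hepatocyte markers higher and 1 lower, 1 cholangiocyte marker lower, 1 stellate marker higher and 1 lower, 1 neuronal marker higher and 2 lower, and 1 marker higher in each of the other 3 lists. In brain, 1 neuronal marker was called higher in mouse and 1 sinusoidal endothelial marker lower. The part of cell composition in the results below was not tested.

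The deposited tissue values had been centred per probe over the 4 tissue arrays, to a median linear ratio of 1. Where the 2 middle values belong to one tissue, this fixes that tissue's arrays to mirror each other and makes the arrays of each tissue fall on the same side of 0 once the dyes are turned. That was so for at least 1 probe of 27 of the 35 genes, and over all genes the arrays shared a sign in 93.1% of liver pairs and 93.2% of brain pairs, so 2 tissue arrays on one side of 0 are not independent support. The liver pair was tied in this way for Akr1d1, Cyp27a1, Cyp46a1, Nr1i3, Fgfr4, Slc22a7, Abcb4, Abcb1a and Atp8b1, so the closeness of their liver arrays follows in part from the centring. For all 9 genes called in liver it was the brain pair that was tied, so the spread that enters their test was measured in part on values that could not vary freely. The fit with the replicate block takes out the centring offset, and its p-values in liver for these 9 genes ran from 0.00506 for Slco1a1 to 0.0201 for Slco2b1. Once the dyes are turned, the offset enters the replicate 1 and replicate 2 arrays with opposite signs. It cancels in the mean of both arrays of a tissue. The offset stays in each single array, in the gap between the arrays, and in any value or fit that leaves a tissue with 1 array.

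In liver, the genes of this pathway lay mostly on the mouse side. The mean of 28 of the 35 genes was above 0 and that of the other 7 below 0, against 50.8% of all genes above 0, and the median ratio was 1.06 on the log2 scale, against 0.02 over all genes. Limma at a Benjamini-Hochberg adjusted p under 0.05 called 9 of the 35 genes (25.7%) higher in mouse liver than in hamster liver and 0 lower, against 2.35% of all genes called higher and 2.26% called lower (4.61% in either direction). At an unadjusted p under 0.05 there were 18 higher and 3 lower, against 20.7% and 21.8% of all genes. With dye orientation entered as a replicate block, 18 genes were called higher and 1 lower, and the share of all genes called was 16.3% higher and 9.22% lower (25.6% in either direction). All 9 genes called without the block were also called with it. With either liver array left out, limma called 0 of the 35 genes and 0% of all genes. Those with an unadjusted p under 0.05 then numbered 15 to 17, against 29.5% to 30.0% of all genes.

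**Figure D1:**
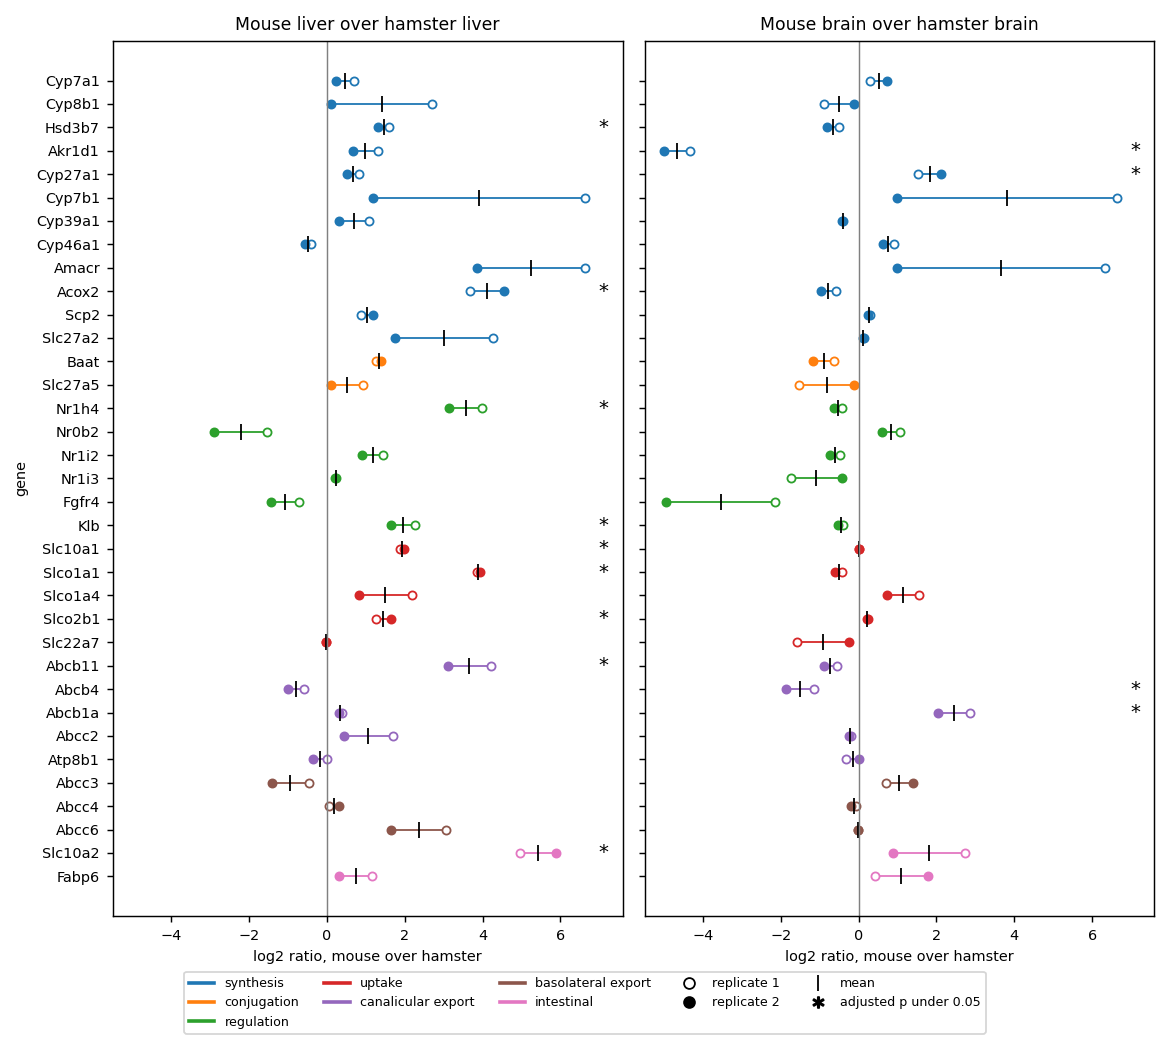
Log2 ratio of mouse over hamster for each of the 35 genes (rows, grouped and coloured by role) in liver (left) and brain (right). Open and filled circles are the replicate 1 and replicate 2 arrays, the vertical tick is their mean, and an asterisk marks an adjusted p under 0.05 by limma. The 9 liver asterisks all lie to the right of 0, and the widest gaps between arrays belong to Cyp7b1 and Amacr, whose replicate 1 values in liver are at the floor of the deposited ratios.

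Among the 12 synthesis genes, 11 had a liver ratio above 0 and 2 were called higher. Acox2, the peroxisomal oxidase that begins the shortening of the bile acid side chain, had liver ratios of 3.68 on the replicate 1 array and 4.56 on the replicate 2 array. Its mean was 4.12 ± 0.29 (SE of the limma fit), a 17.4-fold higher signal in mouse liver (adjusted p = 0.0356, limma). Each SE of a tissue mean comes from the fit over the 4 tissue arrays. A gene's liver and brain means therefore share it, and it is not the spread of the liver arrays alone. Hsd3b7, which oxidises the hydroxyl of the sterol ring after 7-alpha hydroxylation, had 1.61 and 1.30, a mean of 1.46 ± 0.16 and a 2.74-fold difference (adjusted p = 0.0458).

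The enzymes that open the classic and the alternative route did not pass the test. Cyp7a1, the rate-limiting hydroxylase of the classic route, had liver ratios of 0.69 and 0.24 with a mean of 0.47 ± 0.20 (adjusted p = 0.171). Cyp27a1, which hydroxylates the side chain in mitochondria, had 0.83 and 0.52 with a mean of 0.68 ± 0.21 (adjusted p = 0.108). Cyp8b1, the 12-alpha hydroxylase that sets the share of cholic acid, had 2.71 and 0.10, with a mean of 1.41 ± 0.76 (adjusted p = 0.228). None of these genes was called with the replicate block either.

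Akr1d1, the reductase that gives the sterol ring its bent form, had liver ratios of 1.31 and 0.67 and a mean of 0.99 ± 0.27 (adjusted p = 0.0971, or 0.0388 with the replicate block). Cyp7b1, the oxysterol 7-alpha hydroxylase of the alternative route, had a replicate 1 value at the floor of the deposited ratios and 1.18 on replicate 2, so its mean is at least 3.91. Amacr, the racemase that prepares side chains for oxidation, likewise had replicate 1 at the floor and 3.87 on replicate 2, a mean of at least 5.26. Both missed the threshold (adjusted p = 0.237 for Cyp7b1 and 0.11 for Amacr). With the floor values set as missing, replicate 2 alone was left, at 1.18 for Cyp7b1 (adjusted p = 0.147) and 3.87 for Amacr (0.322). Both are among the genes called with the block, but for Cyp7b1 that fit compares identical floor values of liver and brain, which makes its spread small by construction, and for Amacr it also uses the floor value, so neither block call is read as support.

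Slc27a2, an acyl-CoA synthetase that activates bile acid intermediates, had 4.27 and 1.74 and a mean of 3.01 ± 0.70 (adjusted p = 0.0853, or 0.0222 with the block). Scp2, whose longer product is the peroxisomal thiolase of side chain shortening, had the closer values of 0.88 and 1.18 and a mean of 1.03 ± 0.13 (adjusted p = 0.0546, or 0.0389 with the block). The remaining synthesis genes were small: Cyp39a1, which hydroxylates 24-hydroxycholesterol, averaged 0.69 ± 0.23 (adjusted p = 0.122). Cyp46a1, the neuronal enzyme that makes 24-hydroxycholesterol, was the only synthesis gene below 0 in liver, at -0.41 and -0.57 (adjusted p = 0.099).

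Of the conjugation genes, neither was called without the block. Baat, which joins bile acids to taurine or glycine, had liver ratios of 1.27 and 1.40, with a mean of 1.34 ± 0.18 (adjusted p = 0.0557, or 0.0274 with the block). Slc27a5, the ligase that makes the bile acyl-CoA that Baat uses, had 0.92 and 0.11 and a mean of 0.52 ± 0.46 (adjusted p = 0.421).

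Among the 6 regulators, 2 were called higher in mouse liver. Nr1h4, the bile acid receptor FXR, had ratios of 4.00 and 3.14, a mean of 3.57 ± 0.26 and an 11.9-fold difference (adjusted p = 0.0356). Klb, the co-receptor through which the intestinal growth factor Fgf15 acts on hepatocytes, had 2.27 and 1.66, a mean of 1.96 ± 0.20 and a 3.89-fold difference (adjusted p = 0.0443).

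Nr0b2, the repressor SHP that FXR is known to induce, lay on the other side. It had -1.54 and -2.90 in liver, a mean of -2.22 ± 0.41 and an adjusted p of 0.0739, and it was the one gene called lower in mouse liver with the replicate block (0.0123). Fgfr4, the receptor that pairs with Klb, had -0.70 and -1.43 and a mean of -1.07 ± 0.80 (adjusted p = 0.351). Nr1i2, the xenobiotic receptor PXR, averaged 1.18 ± 0.20 (adjusted p = 0.0659, or 0.029 with the block). Nr1i3, the related receptor CAR, averaged 0.23 ± 0.37 (adjusted p = 0.652).

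Of the 5 uptake carriers measured, 3 were called higher in mouse liver. Slco1a1, a sinusoidal organic anion carrier of rodents, had the values 3.86 and 3.92. Its mean of 3.89 ± 0.12 was a 14.8-fold difference, with the smallest adjusted p of the 35 genes in liver (0.0228). Slc10a1, the sodium-dependent carrier that brings conjugated bile acids back from the portal blood, had 1.88 and 1.98, a mean of 1.93 ± 0.11 and a 3.81-fold difference (adjusted p = 0.03). Slco2b1, another organic anion carrier, had 1.25 and 1.65 and a mean of 1.45 ± 0.15 (adjusted p = 0.045). The liver arrays of Slco1a1, which were not the tied pair, almost coincided.

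Slco1a4, a close relative of Slco1a1, had 2.19 and 0.82, with a mean of 1.5 ± 0.45 (adjusted p = 0.105, or 0.0201 with the block). Slc22a7, an organic anion exchanger, had a mean of -0.01 ± 0.38 in liver (adjusted p = 0.984).

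Of the 5 canalicular genes, only Abcb11 was called. Abcb11, the bile salt export pump, had 4.21 and 3.11 in liver, a mean of 3.66 ± 0.33 and a 12.6-fold difference (adjusted p = 0.042). Abcc2, which exports conjugated organic anions, had 1.69 and 0.44 and a mean of 1.06 ± 0.36 (adjusted p = 0.121). Abcb4, the phosphatidylcholine translocator, lay below 0 at -0.59 and -1.01 (adjusted p = 0.11). Abcb1a, a P-glycoprotein drug pump, averaged 0.34 ± 0.25 (adjusted p = 0.336), and Atp8b1, a flippase of the canalicular membrane, averaged -0.19 ± 0.17 (adjusted p = 0.433), with none of its 3 probes called alone.

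None of the 3 basolateral exporters measured was called without the block. Abcc6, a transporter with its highest known expression in liver, had 3.06 and 1.65 and a mean of 2.36 ± 0.40 (adjusted p = 0.0679, or 0.0162 with the block). Abcc3 and Abcc4, which export bile acids to blood and are known to increase in cholestasis, averaged -0.94 ± 0.34 (adjusted p = 0.133) and 0.18 ± 0.13 (adjusted p = 0.32).

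The 2 genes known best from the ileum were also measured in liver. Slc10a2, the apical sodium-dependent bile acid carrier of ileum and bile duct cells, had 4.96 and 5.88, and its mean of 5.42 ± 0.58 was the highest among the genes with no value at the floor, a 42.9-fold difference (adjusted p = 0.0454). Fabp6, the cytosolic bile acid binding protein of ileal cells, had 1.16 and 0.32 and a mean of 0.74 ± 0.46 (adjusted p = 0.274). The cholangiocyte list, which marks the bile duct cells known to carry Slc10a2, had 0 of 6 genes called in liver by limma and 1 lower with the block, with a median of -0.15, and its part in the Slc10a2 value was not tested.

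In brain the same genes were split around 0. The mean was above 0 in 14 of the 35 genes, against 52.9% of all genes, and the median was -0.15, against 0.06 over all genes. Limma called 2 genes higher in mouse brain than in hamster brain (5.71%) and 2 lower (5.71%), where 10.1% of all genes were called higher and 5.91% lower (16.0% in either direction). With the replicate block there were 5 higher and 3 lower, against 21.1% and 10.5% of all genes (31.6% in either direction), and the genes called without the block were among them. Leaving out either brain array left 0 of the 35 genes and 0% of all genes called by limma. Those with an unadjusted p under 0.05 then numbered 9 to 10, against 31.8% to 34.5% of all genes. For each of the 4 called genes the liver pair, not the brain pair, was tied by the centring.

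Akr1d1 had -4.33 and -5.00 in brain, and its mean of -4.67 ± 0.27 was a 25.4-fold lower signal in mouse (adjusted p = 0.019). Abcb4 had -1.15 and -1.87, a mean of -1.51 ± 0.25 (adjusted p = 0.0473). On the mouse side, Abcb1a, known for keeping drugs out of the brain at the blood-brain barrier, had 2.85 and 2.05, a mean of 2.45 ± 0.25 and a 5.46-fold difference (adjusted p = 0.0276). The brain endothelium list, of the cells where Abcb1a is known to work, had 0 of 6 genes called in brain and a median of 0.32. Cyp27a1 had 1.53 and 2.11 in brain and a mean of 1.82 ± 0.21 (adjusted p = 0.0309).

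The largest brain ratios that did not pass belonged to Cyp7b1 and Amacr. Cyp7b1 again had replicate 1 at the floor, with 1.00 on replicate 2, a mean of at least 3.82 (adjusted p = 0.237), and 0.999 with the floor value set as missing (adjusted p = 0.159). Its call with the block rests on the same identical floor values. Amacr had 6.32 and 0.99 and a mean of 3.66 ± 1.65 (adjusted p = 0.172). Its call with the block (0.0112) also draws on the floor value in liver. Fgfr4 had -2.15 and -4.94, a mean of -3.55 ± 0.80 (adjusted p = 0.0666, or 0.00825 with the block). For each of these the arrays lay far apart.

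Slc10a2 averaged 1.81 ± 0.58 in brain (adjusted p = 0.1), Slco1a4 1.14 ± 0.45 (adjusted p = 0.139, or 0.0281 with the block) and Fabp6 1.10 ± 0.46 (adjusted p = 0.151). Acox2 and Slco1a1, so far to the mouse side in liver, had brain ratios of -0.58 and -0.98, and of -0.43 and -0.61. Neither passed in brain, with adjusted p-values of 0.125 for Acox2 and 0.0672 for Slco1a1.

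The difference of the species ratio between liver and brain compares the tissues on the same probe. A mismatch drops out of it only if it acts alike in both tissues. That need not hold where a gene is near background in either tissue, which is unknown here. The part of probe mismatch in these differences was not tested. In 27 of the 35 genes the liver ratio exceeded the brain ratio, and the median difference was 1.32 on the log2 scale, against -0.08 over all genes. Limma called 9 genes (25.7%) with a larger ratio in liver and 0 with a smaller one, against 2.54% and 3.53% of all genes (6.07% in either direction). At an unadjusted p under 0.05 these counts were 15 and 5, against 13.9% and 18.7% of all genes. With the block, 10 were larger and 2 smaller, against 3.97% and 4.84% of all genes (8.81% in either direction), and all 9 were among the 10. Leaving out any 1 of the 4 arrays left 0 of the 35 genes and 0% of all genes called by limma. Those with an unadjusted p under 0.05 then numbered 13 to 19, against 26.3% to 30.4% of all genes. The 9 were Akr1d1, Acox2, Hsd3b7, Baat, Nr1h4, Klb, Slco1a1, Slc10a1 and Abcb11, which cover synthesis, conjugation, regulation, uptake and canalicular export. Each had a tissue pair tied by the centring, the liver pair for Akr1d1 and the brain pair for the others. Without the block, the spread behind these calls thus came in part from values that could not vary freely. For the same difference, 3 of 13 hepatocyte markers were called larger and 0 smaller. The stellate cell list had 1 of 6 larger, and the cholangiocyte and neuron lists 1 of 6 smaller each. The share called is not read as particular to this pathway.

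**Figure D2:**
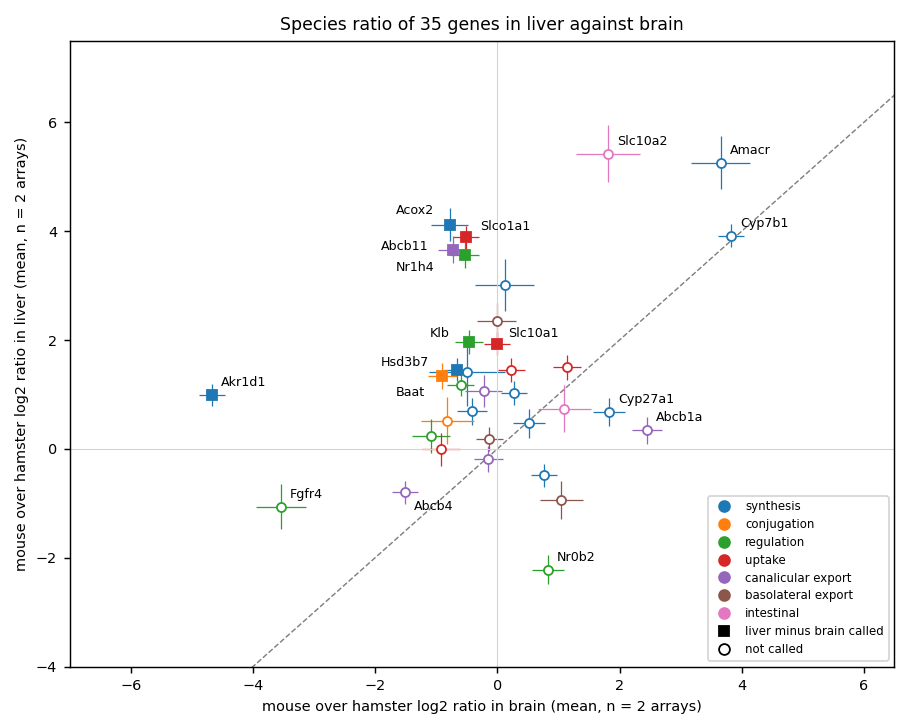
Mean log2 ratio of mouse over hamster in liver (vertical axis) against brain (horizontal axis) for the 35 genes, coloured by role. Error bars are the standard errors of the limma fit with the replicate block (n = 2 arrays per tissue), the dashed line marks equal ratios, and filled squares are the 9 genes whose liver minus brain difference was called without the block. All 9 lie above the dashed line, and the means of Cyp7b1 in both tissues and of Amacr in liver are lower bounds.

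Akr1d1 had the largest called difference, 5.66 ± 0.39 on the log2 scale, or 50.5-fold (adjusted p = 0.0339). It came mainly from brain, since the liver mean was 0.99 and the brain mean -4.67. In Acox2 the difference was 4.90 ± 0.40 (adjusted p = 0.0386), with means of 4.12 in liver and -0.78 in brain. The Slco1a1 difference was 4.41 ± 0.17, or 21.2-fold, with the smallest adjusted p of the set (0.0324). In these last genes the liver ratio supplied most of the difference.

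The pump Abcb11 and the receptor Nr1h4 followed, at 4.38 ± 0.47 (adjusted p = 0.0452) and 4.10 ± 0.37 (adjusted p = 0.0412). Klb differed by 2.42 ± 0.29 (adjusted p = 0.0466), Baat by 2.24 ± 0.26 (adjusted p = 0.0458), Hsd3b7 by 2.12 ± 0.22 (adjusted p = 0.0451) and Slc10a1 by 1.93 ± 0.15 (adjusted p = 0.0366). Scaling the arrays to a common spread ended the calls of Abcb11, Nr1h4, Klb and Hsd3b7, at adjusted p-values of 0.0595, 0.0566, 0.0597 and 0.0556, while their differences stayed between 2.16 and 4.55.

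Among the genes not called, Slc10a2 differed by 3.61 ± 0.82 (adjusted p = 0.0894), Slc27a2 by 2.88 ± 0.99 (adjusted p = 0.162), Fgfr4 by 2.48 ± 1.13 (adjusted p = 0.241) and Abcc6 by 2.37 ± 0.57 (adjusted p = 0.0965). Nr0b2 and Abcb1a ran the other way, at -3.04 ± 0.58 (adjusted p = 0.0715) and -2.11 ± 0.35 (adjusted p = 0.0627). Both were called smaller in liver with the replicate block, at 0.0274 for Nr0b2 and 0.0428 for Abcb1a, and Nr1i2 was the tenth gene called larger, at 1.78 (0.0461).

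Further genes of the same pathway were read beside these. The shares of all genes called in liver were 2.35% higher and 2.26% lower, or 16.3% and 9.22% with the block. Of 22 other bile acid pathway genes measured out of 30 listed, 2 were called higher in mouse liver and 0 lower, or 7 and 0 with the block. The called ones were Cyp2c70, which makes the muricholic acids of mice, at 4.60 ± 0.53 (adjusted p = 0.0487), and Ppara, the fatty acid receptor, at 2.13 ± 0.23 (adjusted p = 0.0465). Of 24 other drug and organic anion transporters measured out of 28 listed, 1 was called higher in liver and 0 lower, or 6 and 2 with the block. That gene was Slc47a1, an exporter of organic cations, at 3.46 ± 0.22 (adjusted p = 0.0341).

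For brain the shares of all genes called were 10.1% higher and 5.91% lower. For liver minus brain they were 2.54% larger and 3.53% smaller. In brain the pathway list gave 1 gene higher, Hnf4a at 0.75 (adjusted p = 0.0459, not called with the block), and 1 lower, the sterol transporter subunit Abcg8 at -2.57 (0.0187). The transporter list gave 3 higher in brain, Slco3a1 at 2.12 (0.0187), Abcc9 at 1.39 (0.0408) and Slc22a6 at 1.34 (0.0278), and 1 lower, Slc27a4 at -1.27 (0.024). For the difference of liver and brain, Abcg8 was called larger in liver at 2.74 (0.0351), as were Slc47a1 at 4.29 (0.0352) and Slc27a4 at 1.45 (0.0449, not called with the block). Slco3a1 at -2.07 (0.0351) and Slc22a6 at -1.84 (0.0449) were called smaller in liver.

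The hybrid lines are cultured cells, and in them the genes of the pathway went both ways relative to A23. The median of the 35 panel means was -0.01 on the log2 scale, against 0.01 over all genes. A gene was called when limma on 1 value per line gave an adjusted p under 0.05 and the mean over the 99 lines was at least 0.2 in size. By that rule 7 genes (20.0%) were higher in the hybrids than in A23 and 1 (2.86%) was lower, where 19.5% of all genes were called higher and 11.4% lower (31.0% in either direction). At an unadjusted p under 0.05 there were 10 higher and 8 lower, against 32.7% and 28.9% of all genes. A23 was never hybridised against itself, so its own spread does not enter the test.

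**Figure D3:**
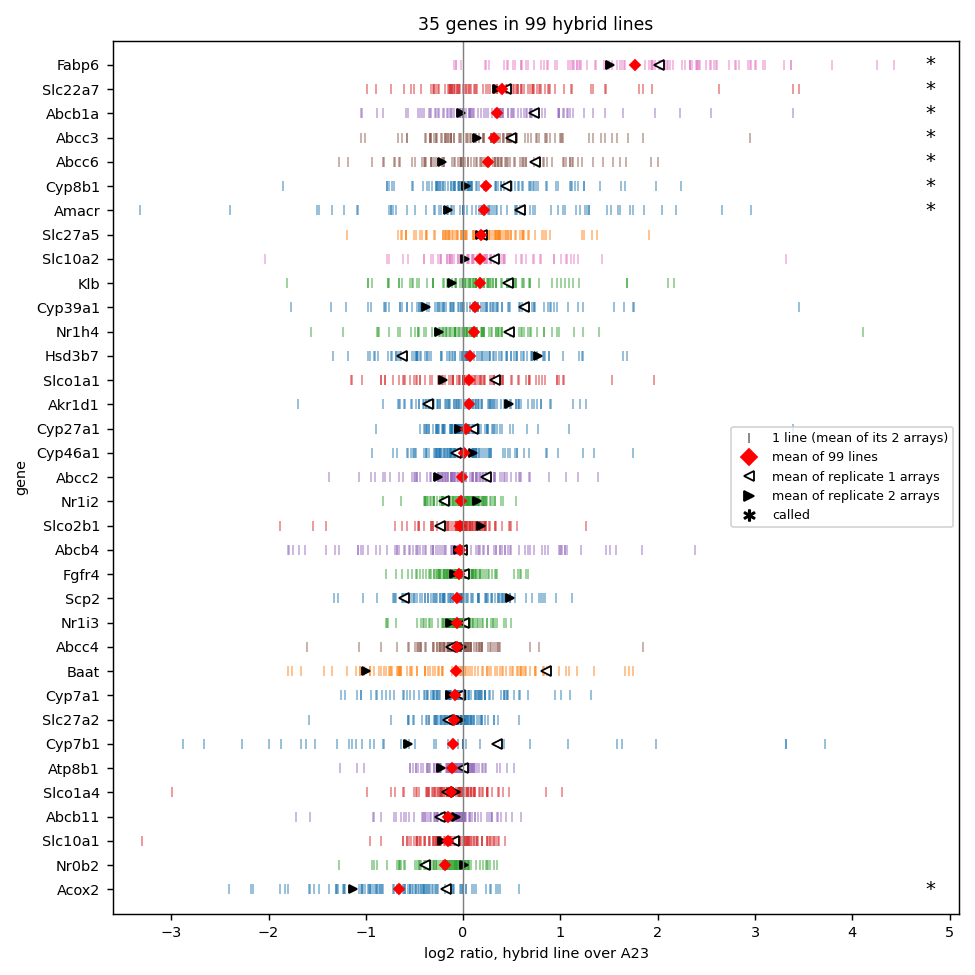
Log2 ratio of hybrid over A23 for the 35 genes, ordered by panel mean. Short bars are the 99 lines (mean of 2 arrays each), red diamonds the mean of the lines, and triangles the means of the replicate 1 and replicate 2 arrays, which have opposite dyes. Asterisks mark the 8 called genes. Fabp6 stands apart at 1.76, while for 21 of the genes the triangles fall on opposite sides of 0.

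Fabp6 was the gene that stood out in the hybrids. Its line means ran from -0.10 to 4.43 with a median of 1.87, and 95 of 99 lines were above 0. The panel mean was 1.76 ± 0.10 (SE, n = 99), a 3.39-fold higher signal in the hybrids (adjusted p = 2.02e-30). Both arrays were above 0 in 91 lines and both above 1 in 56 lines, and no line had both below 0. The orientations agreed in direction, at 2.02 ± 0.13 for replicate 1 and 1.51 ± 0.12 for replicate 2, and both were called alone.

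The highest Fabp6 value belonged to line 87, with 4.38 and 4.47 on its arrays, followed by line 26 with 2.73 and 5.78. The lowest line means were those of lines 23, 55, 72 and 41, and in each of them the arrays disagreed in sign: line 23 had -1.39 and 1.20, line 55 had 0.43 and -0.59, line 72 had 0.80 and -0.95, and line 41 had -0.4 and 0.35. The rise was thus spread over nearly the whole panel. Its line means varied in size, and the F test for differences between lines, given below, depended on the fit.

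**Figure D4:**
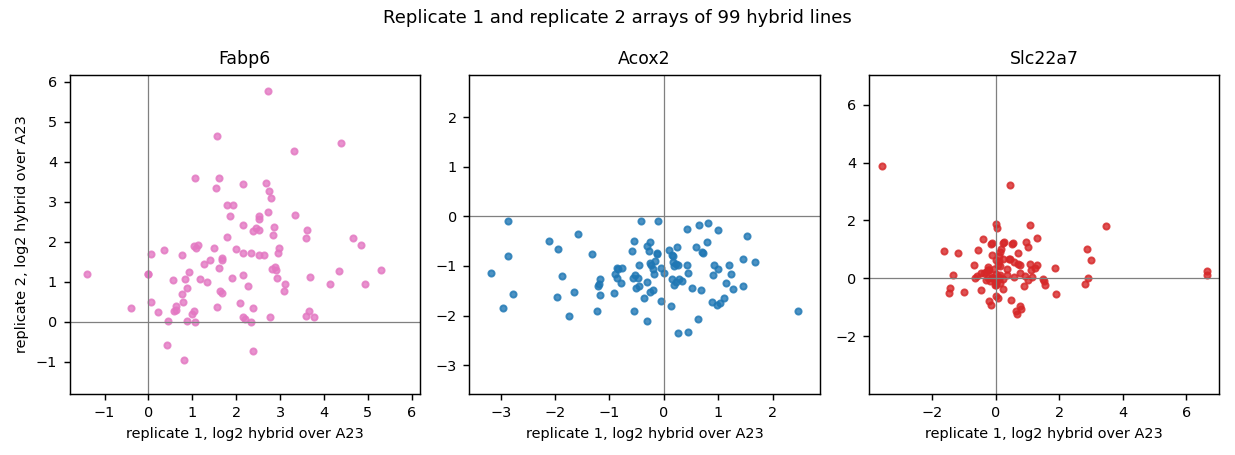
Log2 ratio of hybrid over A23 on the replicate 2 array (vertical axis) against the replicate 1 array (horizontal axis), 1 point per line, for Fabp6, Acox2 and Slc22a7. Fabp6 has 91 of 99 lines with both arrays above 0. Acox2 lies below 0 on every replicate 2 array but on both sides of 0 on replicate 1, and the 2 Slc22a7 points at the far right are replicate 1 values at the floor of the deposited ratios.

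Acox2 was the one gene called lower in the hybrids. Its line means ran from -2.40 to 0.57 with a median of -0.55, 87 of 99 lines were below 0, and the panel mean was -0.65 ± 0.06, 1.57-fold lower than A23 (adjusted p = 9.14e-17). The fall rested on 1 dye orientation: replicate 2 arrays averaged -1.13 ± 0.05 and were below 0 in all 99 lines, the highest at -0.09. Replicate 1 arrays averaged -0.18 ± 0.11 and were not called (adjusted p = 0.13). Both arrays were below 0 in 53 lines.

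Slc22a7 averaged 0.40 ± 0.07 in the hybrids (adjusted p = 4.33e-06), with 66 of 99 lines above 0 and a range of line means from -0.99 to 3.45. The highest line means, 3.45 for line 14 and 3.39 for line 13, rest on replicate 1 values at the floor, beside 0.26 and 0.13 on replicate 2. The orientations of Slc22a7 had the same sign, with means of 0.44 for replicate 1 and 0.35 for replicate 2, each called alone. Their medians over the lines were 0.14 and 0.23. Fabp6 and Slc22a7 were the only 2 of the 35 genes called in the same direction in each orientation alone, while 10 genes were called in opposite directions. Of all genes, 61.6% were called on replicate 1 alone and 48.3% on replicate 2 alone, and 61.3% had opposite signs. The share of all genes called in both orientations was not counted, so neither count is read as particular to these genes. In the 28 lines whose second array correlated best with their own first array, Slc22a7 averaged 0.15 and was no longer called (adjusted p = 0.197), while Fabp6 averaged 1.63 (3.4e-07) and Acox2 -0.37 (0.000965).

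The other genes called higher were Abcb1a at 0.35 ± 0.07 (adjusted p = 1.51e-05), Abcc3 at 0.32 ± 0.06 (1.23e-05), Abcc6 at 0.26 ± 0.07 (0.000533), Cyp8b1 at 0.23 ± 0.06 (0.00105) and Amacr at 0.22 ± 0.09 (0.0409). In Abcb1a, Abcc6 and Amacr the orientations had opposite signs: replicate 1 arrays averaged 0.73, 0.73 and 0.59, and replicate 2 arrays -0.03, -0.22 and -0.16. Abcc3 had 0.49 and 0.14, and Cyp8b1 0.44 and 0.02, so only replicate 1 was called for either. In the 28 matched lines Abcc3 stayed called at 0.45 (0.018), while the calls of Abcb1a (0.22), Abcc6 (0.112), Cyp8b1 (0.239), Amacr (0.18) and Slc22a7 (0.197) were lost, with means of 0.19, 0.26, 0.14, 0.37 and 0.15. Scaling the arrays to a common spread took the Cyp8b1 mean to 0.15, under the size limit. The Amacr call was also lost without line 42, the line with the widest spread (adjusted p = 0.0574), and with exact zeros as missing (0.112).

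Of the genes not called, Nr0b2 averaged -0.19 ± 0.03 (adjusted p = 8.95e-08), Slc10a1 -0.16 ± 0.04 (0.000969) and Abcb11 -0.16 ± 0.04 (0.000133), all under the size limit. Slc27a5 averaged 0.18 ± 0.05 (0.00105), Slc10a2 0.17 ± 0.06 (0.00727) and Klb 0.17 ± 0.06 (0.014), again under it. Slco1a1 and Akr1d1 averaged 0.06 each, with adjusted p-values of 0.355 and 0.306. For Akr1d1 the orientations were opposed, at -0.36 for replicate 1 and 0.47 for replicate 2, both called.

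Many of these genes differed between the replicate 1 and the replicate 2 arrays. Over all genes 61.3% had opposite signs in the means of the replicate 1 and replicate 2 arrays, and 21 of the 35 genes did. Across all genes these means correlated at -0.226. The widest split was in Baat, at 0.85 and -0.99, followed by Hsd3b7 at -0.63 and 0.77, and Scp2 at -0.60 and 0.48. A dye effect and any other difference between the first and the second set of arrays cannot be told apart here, and a mean near 0 in these genes covers arrays that disagree.

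Several genes also had many ratios of exactly 0 in the hybrids. The share was 78.8% of arrays for Cyp7b1, 49.5% for Slc10a2, 47.0% for Slco1a1, 44.9% for Amacr and 33.3% for Klb, and 10 of the 35 genes were above 10%. The median over the 35 genes was 1.52%. Of the 5 genes named, Amacr was called and its call was lost when exact zeros were set as missing (adjusted p = 0.112), and Slc10a2, not called, passed then at 0.41 (0.00876).

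Each line holds other mouse fragments, so the lines were also tested for differences among themselves with limma's F test over the 198 arrays, with dye orientation as a term. Of the 35 genes 1 was called, Fabp6, with F = 1.75 (adjusted p = 0.0351), where 8.88% of all genes were called. At an unadjusted p under 0.05 there were 9, against 18.6% of all genes. After Fabp6 the largest F values were those of Hsd3b7 at 1.67 (adjusted p = 0.0585), Scp2 at 1.57 (0.109), Amacr at 1.55 (0.12), Cyp39a1 at 1.52 (0.139), Cyp46a1 at 1.51 (0.148) and Abcc3 at 1.47 (0.189). Akr1d1 had F = 1.42 (0.238), Acox2 1.03 (0.749) and Slco1a1 0.76 (0.968).

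The Fabp6 call was lost when the dye orientation was left out of the fit (adjusted p = 0.186) and when exact zeros were set as missing (0.0527). With arrays scaled to a common spread, 7 of the 35 genes were called, against 10.9% of all genes: Fabp6, Scp2 (adjusted p = 0.0017), Cyp46a1 (0.00345), Akr1d1 (0.00353), Abcc3 (0.0259), Amacr (0.0287) and Hsd3b7 (0.0488). Without line 42, Fabp6 and Hsd3b7 (0.0186) were called, against 8.83% of all genes.

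Some lines were high on both arrays for a gene of the set. Amacr was above 1 on both arrays in 7 lines, the highest being line 29 with 2.70 and 3.21 and line 13 with 2.18 and 3.15. Abcc3 was above 1 on both arrays in 3 lines, among them line 22 with 3.01 and 2.88. Abcb4 was above 1 on both in 2 lines, line 48 with 2.28 and 2.50 and line 79 with 1.72 and 1.96. Hsd3b7 was above 1 on both in 3 lines, the highest line 23 with 2.14 and 1.23. These lines are given as a description, since no line was tested alone. Of the lines named here, only line 22 was among the 28 matched lines. Some of them also lay at the ends of the range of other genes. Line 23 was the lowest line for Cyp7a1, Nr1h4 and Fabp6, line 13 the highest for Nr1h4 and Abcb1a, and line 29 the highest for Abcc2.

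A radiation hybrid fragment often carries adjacent genes together, and 2 pairs of these genes are known to be neighbours in the mouse genome. Abcb1a and Abcb4 correlated across the 99 line means with r = -0.192 (two-sided permutation p = 0.0574, adjusted p = 0.115 over the 2 pairs) and rho = -0.243 (p = 0.0162, adjusted p = 0.0324). In each orientation alone r was -0.106 for replicate 1 and -0.0956 for replicate 2 (permutation p = 0.299 and 0.348), so the relation did not hold within either. Without the 2 lines farthest from the median of Abcb1a, r was -0.266 over 97 lines (adjusted permutation p = 0.0186). With arrays scaled to a common spread r was -0.0767 (adjusted permutation p = 0.898) and rho -0.207 (0.0804), so neither passed. Slco1a1 and Slco1a4 had r = -0.00883 (adjusted p = 0.928) and rho = 0.0126 (0.901) by the same permutation test, and without the 2 farthest lines r was -0.0423 (0.677). Their orientations alone gave 0.19 for replicate 1 and -0.0799 for replicate 2 (permutation p = 0.0601 and 0.348).

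The further lists were also read in the hybrids, where 19.5% of all genes were called higher than A23 and 11.4% lower. The F test called 8.88% of all genes. Of the 22 other pathway genes 3 were called higher than A23 and 3 lower, led by Stard3, a cholesterol carrier of late endosomes, at 0.41 ± 0.05 (adjusted p = 5.87e-13), Ephx1 at -0.39 ± 0.12 (0.00283) and Hsd17b4, the peroxisomal enzyme that follows Acox2, at 0.37 ± 0.08 (1.81e-05). Cebpa at -0.37 (3.4e-07) and Hnf4a at -0.36 (2.73e-08), both liver transcription factors, were lower, and Acaa1a at 0.20 (3.25e-05) was higher. Of the 24 other transporters 4 were called higher and 4 lower. The 6 largest were Slco4a1 at 0.90 (1.38e-10), Slco3a1 at 0.51 (5.43e-17), Slc16a1 at -0.44 (0.000138), Abcc1 at 0.30 (7.81e-10), Abcc5 at -0.28 (5.65e-06) and Abcb6 at -0.26 (6.59e-05). The F test called 2 of the pathway genes, Hsd17b4 (F = 1.87, adjusted p = 0.0149) and Scarb1 (1.74, 0.037), and 4 of the transporters, with Abcb6 (3.26, 2.85e-07), Abcg2 (2.40, 0.000227), Slco4a1 (2.23, 0.000899) and Slc22a18 (2.11, 0.00224).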

How the data were processed

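The deposited table gives, for each array, the log10 of Cy5 over Cy3 (scale and dyes per the labels) for 20868 features on 202 arrays, with 0 missing values. How the authors corrected background and normalised is not given in the sources used. Per the labels, replica 2 exchanged the dyes of replica 1. Each ratio was turned by its dyes to one direction and put on the log2 scale, giving hybrid over A23 and mouse over hamster. Same-orientation hybrid arrays had a median r of 0.225 (replicate 1) and 0.233 (replicate 2), and r was under -0.3 in 40 and 2 of 4851 pairs (lowest -0.706 and -0.382). The labels state the dyes, so the direction was kept.

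In 20720 features (99.3%) the 4 linear tissue ratios had a median of 1, within 1e-06. The other 148 held a value at the floor, log10 -2 (6.64 on the log2 scale), and means that rest on one are bounds. The offset of this centring cancels in the mean of both arrays of a tissue, but not in a single array.

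Symbols came from the array's probe table: 17786 features had 1 symbol, 16 several and 3066 none. Features of 1 symbol were averaged per gene. Tests used limma 3.58.1 in R 4.3.3 on all 16504 genes, with Benjamini-Hochberg adjustment, after the steps were tested on simulated data. A single fit with a tissue term held the tissue arrays, and another held 1 mean per line. The replicate numbers pair tissue arrays by dye orientation, per the labels, and replicate 1 deviations of liver and brain correlated at 0.439 across genes, so blocked values are given where they change a call. Neighbouring pairs were taken from general knowledge, because no table of gene positions was used here. This was chosen after seeing the data. The number of arrays limits the precision.

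The genes and lists were chosen with earlier results of these data known. By rule, every measured gene is named with its liver ratio. For the other comparisons the called genes and the 6 largest of the rest are named, with Acox2, Slco1a1 and Akr1d1 always. The 2 further lists are represented by called genes only, up to 6 each. Fabp6 lines and lines high on both arrays were chosen after their values were seen. Alternatives tried were the replicate block, array scaling, values at the floor or at exactly 0 as missing, single features, no size limit, matched lines, and leaving out a replicate or line 42.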

Additional observations from a re-analysis of the deposited data

Results flagged for a closer look

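For 9 genes the mouse over hamster ratio differed between liver and brain by a test of the difference itself, the limma contrast at an adjusted p under 0.05. Liver minus brain was 5.66 on the log2 scale for Akr1d1, 4.90 for Acox2, 4.41 for Slco1a1, 4.38 for Abcb11, 4.10 for Nr1h4, 2.42 for Klb, 2.24 for Baat, 2.12 for Hsd3b7 and 1.93 for Slc10a1. With the replicate block all 9 were called as well, with adjusted p-values from 0.0163 for Akr1d1 to 0.0394 for Slc10a1. Each of the 9 had a tissue pair tied by the centring. The spread in the fit without the block thus came in part from values that could not vary freely.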

How the results depend on the processing

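With the replicate block, the genes called were 18 higher and 1 lower in liver and 5 higher and 3 lower in brain. For liver minus brain 10 were larger and 2 smaller. The shares of all genes called were 25.6% in liver, 31.6% in brain and 8.81% for the difference. Leaving out any single array of a tissue left 0 called by limma in liver, brain or their difference, where the lone array is assumed to vary like the pair of the other tissue. At an unadjusted p under 0.05 there were then 15 to 17 genes in liver, 9 to 10 in brain and 13 to 19 for the difference. Array scaling left 5 genes larger in liver than in brain, against 1.15% of all genes. Setting values at the floor as missing or testing single features moved no tissue count. In the hybrids, no size limit called 18 genes, 8 of them lower, against 30.5% of all genes higher and 27.0% lower. The 28 matched lines gave 3 higher and 2 lower, against 15.5% and 5.65% of all genes. Fits without a replicate gave 5 to 15 higher and 6 to 10 lower, against 22.3% to 36.9% and 24.8% to 26.0%. Leaving out a replicate reversed Amacr (-0.16 to 0.59), Abcb1a (-0.026 to 0.73) and Abcc6 (-0.22 to 0.73). Treating arrays as units with the replicate block changed no call there. Limma's F test called 0 genes without the replicate block and 0 with exact zeros as missing, against 4.65% and 8.13% of all genes. At an unadjusted p under 0.05 these counts were 3 and 9, against 9.31% and 18.3%. The F test called 7 with arrays scaled and 2 without line 42, against 10.9% and 8.83% of all genes. The Abcb1a and Abcb4 correlation was -0.266 without the 2 farthest lines and -0.0767 with arrays scaled. The causes were not tested. Signal over background is unknown.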
